A study of Mus musculus with 12 samples.

Results

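Cholesterol metabolism was followed through 32 genes, chosen by name for their place in cholesterol synthesis, uptake, control, transport and efflux. All 32 were found among the 55450 genes of the deposited tables, and all 32 passed the filter on low counts. The samples were pmel-1 mouse CD8 T cells, which carry a transgenic T cell receptor for a gp100 melanoma peptide, with wild-type Ucp2 in every group. The 4 groups of 3 libraries were genipin, genipin with N-acetylcysteine (NAC), NAC alone, and vehicle, which was culture medium. Genipin is a plant compound used to block the mitochondrial carrier Ucp2, and NAC is a thiol antioxidant. Cells of all groups were activated in vitro through the receptor and kept in IL-2 at 10 ng/ml for 4 days. The labels name a peptide or antibody route of activation without assigning one to these libraries. They give no doses and leave unstated whether replicates were separate mice or cultures. Library-to-library spread alone stands behind the p-values, and it may be technical.

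Cells make cholesterol from acetyl-CoA through mevalonate, squalene and lanosterol. When sterol in the endoplasmic reticulum is low, Scap escorts the membrane-bound factor SREBP2 to the Golgi, where it is cleaved and then switches on the genes of synthesis and lipoprotein uptake. With ample sterol, Insig proteins hold Scap back. LXR receptors work in the other direction. Bound by oxysterols, they switch on the efflux pumps Abca1 and Abcg1 and the ubiquitin ligase Mylip, which has lipoprotein receptors degraded. Activated T cells raise sterol synthesis to build membrane as they divide.

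Library totals were 20838894 to 31098648 expected counts. Levels are CPM, counts scaled to a common library total. They are shares of a library, so fewer cells of a type and less RNA per cell cannot be told apart. Differences are log2 fold changes ± standard error (SE) from edgeR's quasi-likelihood test over 13636 genes, called at a Benjamini-Hochberg adjusted p under 0.05. Replicates were close, with a common biological coefficient of variation of 0.0393, and most genes passed the test in each comparison. Of the 3 libraries with both compounds, replicate 1 stood apart. Its counts differed with a chi-square of 6.95 and 8.07 per degree of freedom against the other replicates of that group. Those gave 2.08 between them, and pairs within the other groups gave 2.18 to 2.92. The 6 markers of CD8 T cells summed to 3439 to 3508 CPM in genipin, 4128 to 4164 CPM in genipin with NAC, 3279 to 3333 CPM in NAC and 3344 to 3439 CPM in vehicle. The 7 markers of macrophages and monocytes, cells rich in Lrp1 and Abca1, summed to 7.28 to 8.35 CPM in genipin, 40.4 to 43.4 CPM in genipin with NAC, 11.8 to 13.9 CPM in NAC and 8.89 to 11.4 CPM in vehicle. Most of that was Itgam, an integrin that activated T cells can also carry, while Lyz2, Adgre1, Csf1r, C1qa and Mrc1 never exceeded 0.322 CPM. Cd14, the remaining marker, differed from the sum, with 2.90 to 3.32 CPM in genipin, 2.06 to 2.41 CPM in genipin with NAC, 0.460 to 0.680 CPM in NAC and 1.25 to 2.00 CPM in vehicle; like Abca1 it was highest in genipin and lowest in NAC. The 5 B cell markers summed to 0.938 to 1.71 CPM in genipin, 4.39 to 6.69 CPM in genipin with NAC, 9.25 to 11.6 CPM in NAC and 2.57 to 2.71 CPM in vehicle. Most of it was Cd79b. The 3 natural killer markers summed to 120.9 to 122.9 CPM in genipin, 89.1 to 94.8 CPM in genipin with NAC, 45.0 to 46.1 CPM in NAC and 67.4 to 73.2 CPM in vehicle. Most of that was Eomes, a factor that CD8 T cells also express, and Ncr1 was at 1.61 to 2.36 CPM in genipin and at most 0.172 CPM in the other groups. The 5 dendritic markers summed to 1.005 to 1.31 CPM in genipin, 1.68 to 2.66 CPM in genipin with NAC, 3.68 to 4.00 CPM in NAC and 3.965 to 4.35 CPM in vehicle. Cd4, the marker of CD4 T cells, was at 0.155 to 0.625 CPM in genipin and 2.22 to 3.14 CPM in genipin with NAC. It was at 5.02 to 5.25 CPM in NAC and 1.01 to 1.46 CPM in vehicle. The part of these markers in the results was not tested.

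**Figure D1:**
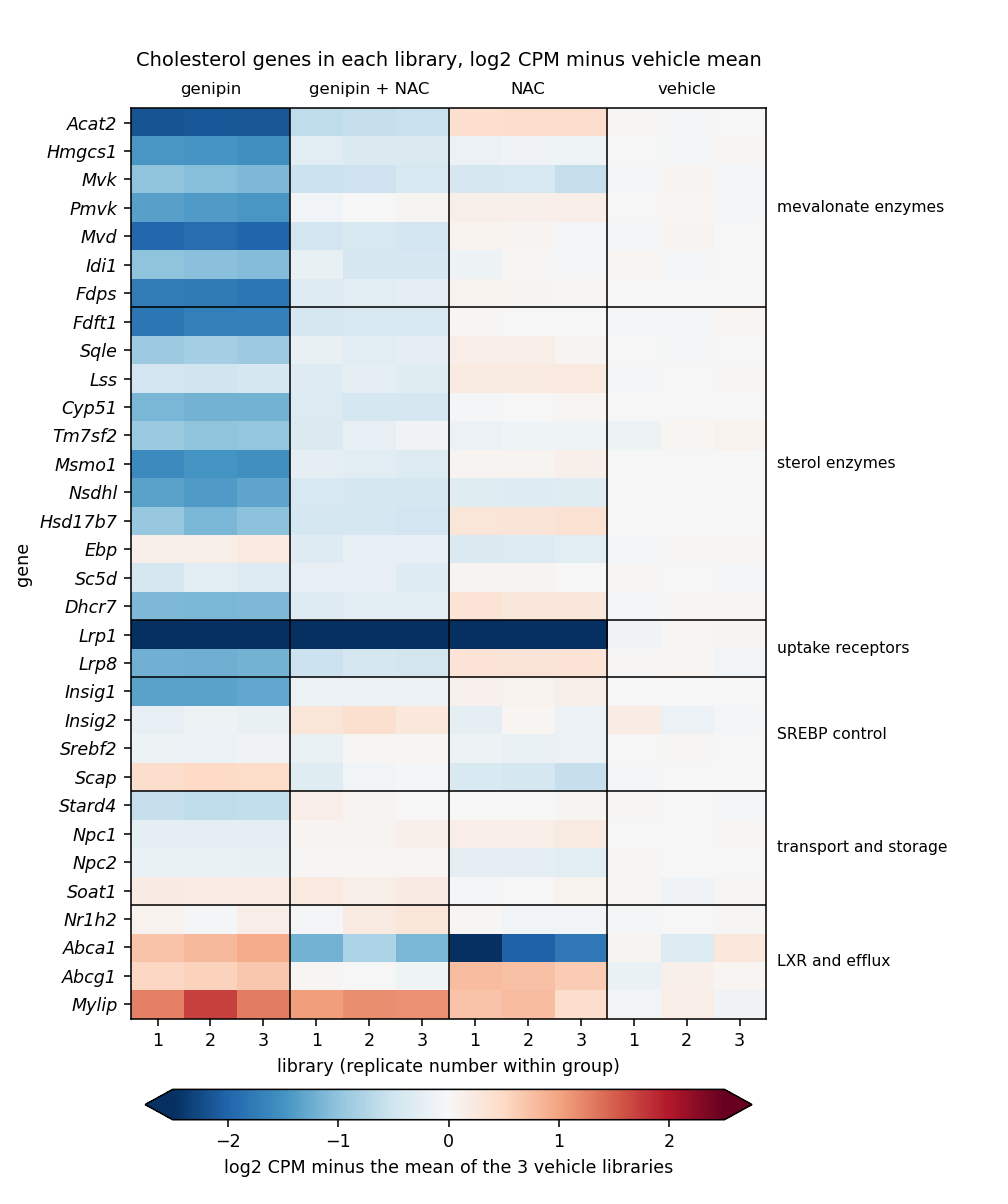
Each row is one of the 32 genes in order of role, each column one of the 12 libraries, and colour gives log2 CPM (with a prior count of 2) minus the mean of the 3 vehicle libraries, on a scale that saturates where the colour bar is pointed. Nearly all enzyme rows are blue in the genipin libraries, paler with both compounds and close to white with NAC alone, whereas Lrp1 is blue in all 9 treated libraries and Mylip red in all 9.

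Genipin lowered most of the cholesterol synthesis pathway. Against vehicle, 17 of the 18 enzymes fell and 1, Ebp, rose, with a median log2 fold change of -1.15 against -0.0079 over all genes tested. Of the 32 genes as a whole, 6 rose and 24 fell, where 61.0% of all genes passed the test, 29.9% in the higher and 31.0% in the lower direction. A fall of at least 2-fold was seen in 16 of the 32 genes, against 6.69% of all genes, and a rise of that size in 1, against 3.11%. The per-library values fell into separate ranges in genipin and vehicle for 30 of the 32, 6 above and 24 below, a separation shared by 66.7% of all genes. The mean genipin level of an enzyme ran from 22.7% to 113% of its vehicle mean, with a median of 45.1%.

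The steps from acetyl-CoA to farnesyl diphosphate held the 3 lowest enzyme fold changes, those of Acat2, Mvd and Fdps. Acat2, the cytosolic thiolase of the first step, had 31.8, 33.0 and 32.3 CPM in genipin, 92.0, 94.8 and 97.3 CPM in genipin with NAC, 190.3, 194 and 194 CPM in NAC and 145, 141 and 143 CPM in vehicle. The 4 groups did not overlap, with genipin lowest and NAC highest, and the log2 fold change of genipin against vehicle was -2.14 ± 0.04 (adjusted p = 7.18e-21). Hmgcs1, the synthase of the next step, had 290.4, 289 and 277 CPM in genipin, 664, 619 and 624 CPM in genipin with NAC, 724, 747 and 744 CPM in NAC and 803, 779.8 and 814 CPM in vehicle. Every genipin library was below every other library, and the log2 fold change was -1.49 ± 0.03 (adjusted p = 2.25e-19). Mvd, which decarboxylates mevalonate diphosphate to isopentenyl diphosphate, had 32.7, 34.2 and 32.02 CPM in genipin, 90.9, 95.9 and 91.7 CPM in genipin with NAC, 135, 134 and 124 CPM in NAC and 124, 133 and 126 CPM in vehicle. Its log2 fold change in genipin was -1.95 ± 0.04 (adjusted p = 6.14e-19), while its NAC and vehicle libraries overlapped. Fdps, which makes farnesyl diphosphate, had 123, 122 and 118 CPM in genipin, 331, 344 and 352 CPM in genipin with NAC, 439, 435 and 431 CPM in NAC and 409.9, 419 and 416 CPM in vehicle. All genipin libraries were again lowest, with a log2 fold change of -1.78 ± 0.03 (adjusted p = 8.92e-21). An overlapping annotated gene on the same strand, Gm43738, took 0 to 21.01 counts in a library, against at least 2728 for Fdps.

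The 3 remaining genes of that stretch fell too. Pmvk, the phosphomevalonate kinase, had 25.9, 24.8 and 24.2 CPM in genipin and 66.0, 68.1 and 64.7 CPM in vehicle, with a log2 fold change of -1.41 ± 0.05. Mvk, the mevalonate kinase, ranged over 22.1 to 24.01 CPM in genipin and 46.7 to 50.3 CPM in vehicle (-1.06 ± 0.06). Idi1, the isomerase of the isoprenoid building blocks, ranged over 129 to 135 CPM in genipin and 263 to 281 CPM in vehicle (-1.04 ± 0.05). All 7 enzymes of this stretch fell, with a median log2 fold change of -1.49.

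Promoter sequences of 6 genes are shown so that enzymes can be read beside genes that moved otherwise. They are Acat2, with the lowest enzyme fold change, Hmgcs1, which holds the longer SREBP motif searched, and Msmo1 of the sterol steps. With them are Insig1, an SREBP target among the control genes, and Lrp1 and Abca1, which did not follow the enzymes. They come from RefSeq on GRCm38.p6, run 5′ to 3′ from 250 bases before the transcript start to 50 bases after it. Capitals mark the exact matches to TCACNCCAC, a sterol regulatory element, or to CCAAT, the box bound by NF-Y, on either strand (CCAAT read on the other strand is ATTGG). The windows are those of Acat2 at chr17:12960676-12960975 (minus strand), Hmgcs1 at chr13:119690101-119690400 (plus strand), Msmo1 at chr8:64733529-64733828 (minus strand), Insig1 at chr5:28071162-28071461 (plus strand), Lrp1 at chr10:127621099-127621398 (minus strand) and Abca1 at chr4:53159846-53160145 (minus strand).
Acat2: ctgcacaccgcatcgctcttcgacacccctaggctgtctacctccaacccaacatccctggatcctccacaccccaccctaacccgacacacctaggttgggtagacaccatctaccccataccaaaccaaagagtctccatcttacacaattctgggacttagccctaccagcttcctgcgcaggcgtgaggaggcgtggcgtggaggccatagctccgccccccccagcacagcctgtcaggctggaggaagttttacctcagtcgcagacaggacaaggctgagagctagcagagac
Hmgcs1: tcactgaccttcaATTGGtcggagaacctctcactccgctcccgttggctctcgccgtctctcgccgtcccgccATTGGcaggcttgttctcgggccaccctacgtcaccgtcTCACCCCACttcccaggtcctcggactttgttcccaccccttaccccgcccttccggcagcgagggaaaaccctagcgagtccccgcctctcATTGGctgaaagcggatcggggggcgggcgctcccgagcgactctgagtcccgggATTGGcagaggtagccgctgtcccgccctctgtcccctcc
Msmo1: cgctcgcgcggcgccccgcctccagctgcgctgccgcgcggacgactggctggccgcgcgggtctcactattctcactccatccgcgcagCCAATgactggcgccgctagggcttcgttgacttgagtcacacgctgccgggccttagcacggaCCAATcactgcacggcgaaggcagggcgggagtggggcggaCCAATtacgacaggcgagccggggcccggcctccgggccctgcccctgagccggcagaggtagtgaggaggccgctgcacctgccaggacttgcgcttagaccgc
Insig1: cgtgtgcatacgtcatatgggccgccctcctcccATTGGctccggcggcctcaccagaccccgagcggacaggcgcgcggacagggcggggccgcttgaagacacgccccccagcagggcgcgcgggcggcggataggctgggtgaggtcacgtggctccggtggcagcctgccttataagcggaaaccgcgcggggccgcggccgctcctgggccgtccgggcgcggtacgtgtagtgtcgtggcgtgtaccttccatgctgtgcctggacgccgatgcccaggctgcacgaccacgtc
Lrp1: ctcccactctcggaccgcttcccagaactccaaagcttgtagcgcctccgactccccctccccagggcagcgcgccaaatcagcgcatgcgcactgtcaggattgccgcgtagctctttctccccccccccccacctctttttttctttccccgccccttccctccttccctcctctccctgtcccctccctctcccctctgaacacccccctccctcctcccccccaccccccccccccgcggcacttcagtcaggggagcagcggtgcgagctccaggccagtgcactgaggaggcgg
Abca1: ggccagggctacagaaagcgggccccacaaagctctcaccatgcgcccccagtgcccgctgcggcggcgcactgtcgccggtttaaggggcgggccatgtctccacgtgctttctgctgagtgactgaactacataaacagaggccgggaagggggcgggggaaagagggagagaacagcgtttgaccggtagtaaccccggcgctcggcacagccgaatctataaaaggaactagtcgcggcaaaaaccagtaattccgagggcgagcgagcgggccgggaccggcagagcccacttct
Hmgcs1 has its TCACNCCAC match 137 bases before the start and 4 CCAAT boxes, Msmo1 has 3 CCAAT boxes and Insig1 has 1, and the windows of Acat2, Lrp1 and Abca1 hold no match to either motif. Windows were given for 26 of the 32 genes and 15 of the 18 enzymes. A CCAAT match was present in 14 of those 15 enzymes (93.3%), in 6 of the 11 other genes (54.5%) and in 41.1% of the 27025 genes of the table. TCACNCCAC was present in 1 of the 15 enzymes (6.67%) and in 1.44% of all genes. Its shorter core, CACNCCAC, lies within it and was present in 13.3% of the enzymes and 7.12% of all genes. Besides Hmgcs1 it was found in Acat2 and Insig1. The LXR motif, a direct repeat of GGTCA with any 5 bases between the copies, was absent from the windows of all 26 and present in 0.0851% of all genes. A gene with more than 1 window was counted when any of its windows matched. Some genes, such as Dhcr7, matched CCAAT in only 1 of their windows. The 27025 genes were not limited to those tested here. These are counts of exact matches to letters in a window of 300 bases, not of bound sites. Sequences that differ from the searched letters were not counted. On the other strand, the Abca1 window shown above holds a sequence that differs from the LXR motif at 1 base. The lack of an exact match therefore does not show that Abca1 or another gene lacks an LXR site.

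The 11 enzymes from squalene to cholesterol ranged from -1.75 to 0.18 in log2 fold change, with a median of -1.04. Fdft1, the squalene synthase that commits farnesyl diphosphate to sterols, had 46.8, 50.5 and 50.2 CPM in genipin, 123, 124 and 125 CPM in genipin with NAC, 168, 165 and 165 CPM in NAC and 163, 163 and 169.6 CPM in vehicle. Its genipin libraries lay below all others, with a log2 fold change of -1.75 ± 0.04 (adjusted p = 8.89e-20). Exons of Ctsb lie across 774 of its bases on the opposite strand. Ctsb had 4437 to 9058 counts in a library, against at least 1131 for Fdft1. Msmo1, which oxidises the methyl groups of lanosterol-derived sterols, had 52.4, 56.2 and 54.7 CPM in genipin, 136, 129.8 and 125 CPM in genipin with NAC, 166, 167 and 173 CPM in NAC and 159, 159 and 158 CPM in vehicle. Its genipin libraries were again the lowest, with a log2 fold change of -1.54 ± 0.04 (adjusted p = 1.37e-18). Nsdhl, its partner in removing those groups, ranged over 33.5 to 35.6 CPM in genipin and 88.5 to 89.8 CPM in vehicle (-1.35 ± 0.04). Cyp51, the lanosterol demethylase, ranged over 107 to 110.4 CPM in genipin and 239.7 to 244 CPM in vehicle (-1.17 ± 0.03). Akap9 overlaps its exons by 166 bases on the opposite strand, with 1536 to 2491 counts in a library against at least 2388 for Cyp51. Dhcr7, a reductase of the last steps, ranged over 44.0 to 44.7 CPM in genipin and 93.8 to 99.5 CPM in vehicle (-1.13 ± 0.04). Each of these enzymes was below its vehicle range in all 3 genipin libraries.

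Hsd17b7, a sterol ketone reductase, fell with a log2 fold change of -1.04 ± 0.05. Tm7sf2, a sterol reductase that shares exon sequence with Vps51 on the same strand, had -0.97 ± 0.08. Vps51 had 917 to 1458 counts in a library, against at least 180 for Tm7sf2. Sqle, the squalene epoxidase, had -0.89 ± 0.04. The smallest falls were those of Lss, the lanosterol synthase, and Sc5d, a sterol desaturase. Lss had 83.0, 82.1 and 85.1 CPM in genipin, 93.0, 99.1 and 93.6 CPM in genipin with NAC, 136, 135 and 138 CPM in NAC and 113, 116 and 119 CPM in vehicle, and genipin gave -0.48 ± 0.03 (adjusted p = 1.41e-10), or -0.31 with length offsets, which enter the effective length of each gene. Sc5d ranged over 39.3 to 42.9 CPM in genipin, 42.1 to 45.8 CPM in genipin with NAC, 53.0 to 55.2 CPM in NAC and 50.8 to 53.8 CPM in vehicle, and genipin gave -0.35 ± 0.05 (adjusted p = 1.58e-06). Ebp, the sterol isomerase, went the other way, with 58.2, 59.0 and 62.8 CPM in genipin, 42.3, 45.9 and 45.9 CPM in genipin with NAC, 41.3, 41.8 and 43.4 CPM in NAC and 51.3, 54.0 and 53.9 CPM in vehicle. Its genipin libraries were the highest of the 12, with a log2 fold change of 0.18 ± 0.05 (adjusted p = 0.00207) against vehicle. That call was lost with length offsets (0.13, adjusted p = 0.201). In TPM, a level that corrects for transcript length, Fdps and Hmgcs1 were the 2 most abundant enzymes in every group, while Ebp had rank 3 of 18 in genipin at 58.2 TPM and rank 13 in vehicle at 48.8 TPM. Acat2 had rank 16 in genipin at 19.1 TPM and rank 6 in vehicle at 76.8 TPM. The TPM scale itself was shifted, with a median log2 ratio of genipin over vehicle of 0.138 over 11083 genes. The ranks give the order of the enzymes within each group, and the TPM values themselves are not meant to be compared between groups.

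**Figure D2:**
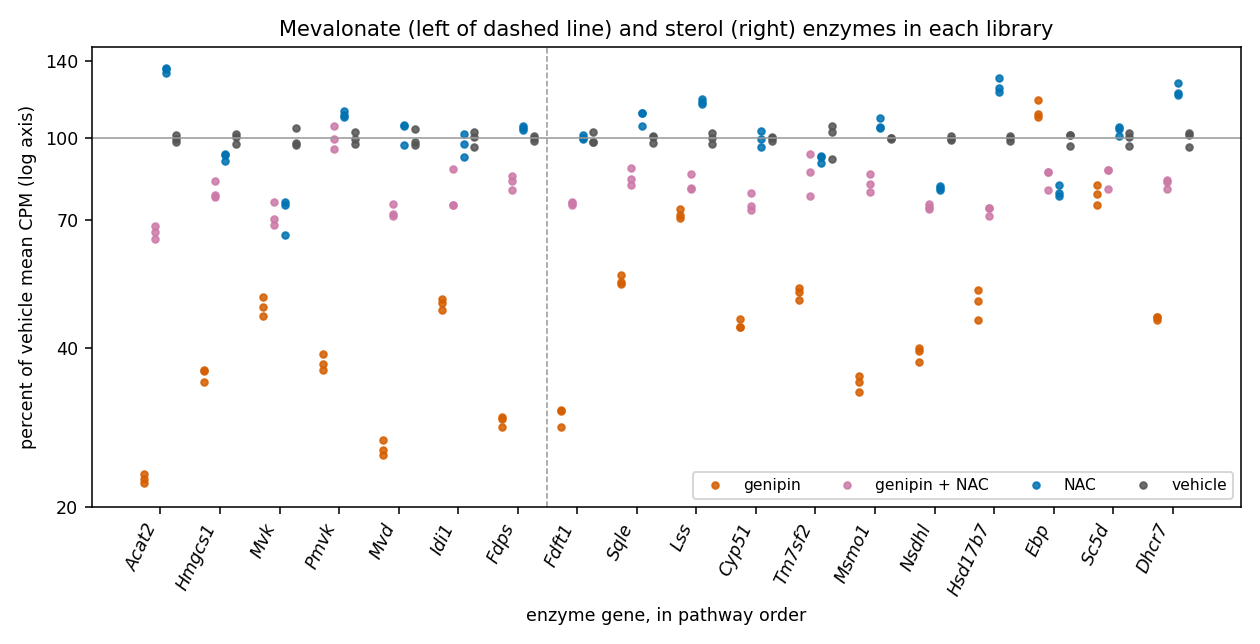
CPM of the 18 enzymes in the order of the pathway, as percent of the vehicle mean of each enzyme on a log axis, with 1 point for each of the 12 libraries; the dashed line parts the mevalonate from the sterol enzymes. The genipin points lie below 100 for all enzymes but Ebp, with Acat2 lowest at 22.7% on average, and the points with both compounds lie between genipin and vehicle for most enzymes.

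With NAC present as well, the enzymes were still lower than in vehicle, but by less. Genipin with NAC against vehicle gave no rise and 17 falls among the 18 enzymes, and 5 rises and 22 falls among the 32 genes, where 57.4% of all genes were called, 28.5% higher and 28.9% lower. The median enzyme log2 fold change was -0.31, and the median enzyme level was 80.8% of its vehicle mean, with a range of 66.3% to 100%. A fall of at least 2-fold was seen in 2 of the 32 genes, against 2.57% of all genes. Those were the receptor Lrp1, which also fell in genipin, and the pump Abca1, which rose there; a rise of that size was seen in 1, Mylip, against 5.38%. The largest enzyme fall was that of Acat2, at -0.59 ± 0.03 (adjusted p = 1.28e-12). Pmvk was the enzyme without a call, at 0.0057 ± 0.04 (adjusted p = 0.92). The call of Tm7sf2, -0.22 ± 0.08 (adjusted p = 0.02), was lost without genipin with NAC replicate 1 or vehicle replicate 2 or 3 (adjusted p of 0.0667 to 0.111), with DESeq2 (adjusted p = 0.055), without normalization factors (adjusted p = 0.0516), and with length offsets (-0.10, adjusted p = 0.504). Both this comparison and that of genipin with vehicle use the same vehicle libraries.

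Set directly against genipin, the combination raised 17 of the 18 enzymes and lowered 1, Ebp. Among the 32 genes 24 rose and 4 fell, where 69.3% of all genes were called, 35.0% higher and 34.3% lower. The median enzyme log2 fold change was 0.81, 8 of the 32 genes were at least 2-fold higher, against 10.5% of all genes, and 1, Abca1, was at least 2-fold lower, against 4.08%. The 8 higher ones were Acat2 (1.55 ± 0.04), Mvd (1.495 ± 0.05), Fdps (1.503 ± 0.03), Pmvk (1.41 ± 0.05), Fdft1 (1.34 ± 0.04), Msmo1 (1.26 ± 0.04), Hmgcs1 (1.16 ± 0.03) and the SREBP-controlled gene Insig1 (1.181 ± 0.03). Ebp was lower, at -0.42 ± 0.05 (adjusted p = 4.77e-08). Lss, with a rise of 0.19 ± 0.04 (adjusted p = 6.06e-05), lost its call with length offsets (0.022, adjusted p = 0.722). Sc5d, with a rise of 0.11 ± 0.05 (adjusted p = 0.0434), lost it in 9 of the 12 fits that left out 1 library, all but those without vehicle replicate 1, genipin replicate 2 or genipin with NAC replicate 3, with adjusted p of 0.0502 to 0.204. It lost it too under 6 of the 8 other settings (adjusted p of 0.0634 to 0.14).

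NAC on its own did not shift the enzymes in 1 direction. Against vehicle, 8 of 18 rose, 4 fell and 6 were not called, with a median log2 fold change of 0.045. Among the 32 genes 13 rose and 9 fell, where 59.7% of all genes were called, 29.6% higher and 30.0% lower. These counts depend on scaling. Without normalization factors the median of all genes moved by 0.12, the share of higher calls was 67.5% in place of 49.7%, and 12 enzymes rose and 3 fell. A fall of at least 2-fold was again that of Lrp1 and Abca1, against 3.88% of all genes, and none of the 32 had a rise of that size, against 6.04%. The highest enzyme rise was that of Acat2, at 0.43 ± 0.03 (adjusted p = 1.02e-10), followed by Hsd17b7 with 59.2 to 62.9 CPM in NAC and 47.7 to 48.7 CPM in vehicle (0.33 ± 0.05) and Dhcr7 with 118 to 124 CPM in NAC and 93.8 to 99.5 CPM in vehicle (0.30 ± 0.03). Lss rose by 0.23 ± 0.03, Pmvk by 0.15 ± 0.04 and Sqle by 0.13 ± 0.03. The falls were those of Mvk (-0.47 ± 0.06), Ebp (-0.33 ± 0.05), Nsdhl (-0.31 ± 0.04) and Hmgcs1 (-0.11 ± 0.03), and the last of these was 0.0061 without normalization factors.

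The 2 smallest enzyme rises in NAC depended on single libraries. That of Msmo1, 0.090 ± 0.03 (adjusted p = 0.028), was lost without any one of the 3 vehicle libraries or NAC replicate 3 (adjusted p of 0.0561 to 0.138), without a filter (adjusted p = 0.11) and with length offsets (adjusted p = 0.115). That of Fdps, 0.068 ± 0.03 (adjusted p = 0.0467), was lost in 8 of the 12 fits without 1 library, those without any one of the 3 vehicle or 3 NAC libraries or without genipin replicate 1 or 2 (adjusted p of 0.0505 to 0.141), without a filter (adjusted p = 0.223), with length offsets (adjusted p = 0.0867) and with the replicate number as a block (adjusted p = 0.0592).

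Within the NAC-treated cells, genipin lowered 15 of the 18 enzymes and raised none, with a median log2 fold change of -0.36 for genipin with NAC against NAC. Among the 32 genes 8 rose and 19 fell, where 53.1% of all genes were called, 26.6% higher and 26.5% lower. Without normalization factors the share of higher calls was 35.9% in place of 50.2%, and the enzyme counts were the same. The falls furthest from 0 were those of Acat2, at -1.02 ± 0.03 (adjusted p = 1.18e-16), and Hsd17b7, at -0.79 ± 0.05. Mvk (-0.0075 ± 0.06), Tm7sf2 (-0.088 ± 0.08) and Ebp (0.084 ± 0.05) were not called. Ebp was called without replicate 1 of the combination (0.12, adjusted p = 0.0358).

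The interaction, which is the genipin effect in the presence of NAC minus that in its absence, was positive and called for 15 of the 18 enzymes and negative for none, with a median of 0.97. It was called in 23 of the 32 genes in the positive and 2 in the negative direction, where 51.4% of all genes were called, 27.4% positive and 24.0% negative. Without normalization factors the median of all genes moved by -0.14, the share of positive calls was 35.3% in place of 53.3%, and 14 enzymes were positive and 2 negative. The highest enzyme values were those of Mvd (1.46 ± 0.06), Fdps (1.43 ± 0.04), Fdft1 (1.33 ± 0.05), Hmgcs1 (1.27 ± 0.04) and Pmvk (1.26 ± 0.06). Lss (-0.040 ± 0.05, adjusted p = 0.512), Ebp (-0.092 ± 0.07, adjusted p = 0.256) and Sc5d (0.064 ± 0.07, adjusted p = 0.45) were not called. Lss was called negative without normalization factors (-0.18, adjusted p = 0.00282) and with length offsets (-0.25, adjusted p = 0.0105). Ebp was called negative without normalization factors too (-0.24, adjusted p = 0.00396). Acat2, the most strongly lowered enzyme, had an interaction of 1.12 ± 0.05, and NAC alone raised it.

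The uptake receptors did not share a pattern. Lrp1, a large endocytic receptor for lipoproteins and protease complexes, had 2.28, 2.95 and 3.35 CPM in genipin, 4.82, 3.94 and 4.54 CPM in genipin with NAC, 4.23, 4.08 and 3.05 CPM in NAC and 27.4, 29.5 and 30.3 CPM in vehicle. All 9 treated libraries were below the 3 vehicle libraries. The log2 fold change against vehicle was -3.34 ± 0.12 (adjusted p = 9.18e-16) for genipin, -2.71 ± 0.11 (adjusted p = 1.19e-14) for genipin with NAC and -2.95 ± 0.11 (adjusted p = 3.97e-15) for NAC. The combination was above genipin alone by 0.63 ± 0.15 (adjusted p = 0.000696), and its difference from NAC did not pass the test (0.24 ± 0.14, adjusted p = 0.164). The interaction of 3.58 ± 0.19 was the highest of the 32 genes, a value that comes with a fall in each compound alone. Lrp8, an apolipoprotein receptor of the same family, had 14.1, 14.0 and 14.4 CPM in genipin, 22.4, 24.1 and 23.7 CPM in genipin with NAC, 41.5, 40.8 and 41.4 CPM in NAC and 33.2, 33.8 and 30.9 CPM in vehicle. Its groups did not overlap, with genipin lowest and NAC highest. Against vehicle, the log2 fold change was -1.20 ± 0.06 (adjusted p = 2.13e-13) for genipin, -0.48 ± 0.06 (adjusted p = 2.05e-07) for genipin with NAC and 0.34 ± 0.05 (adjusted p = 1.25e-05) for NAC. The order of the groups in Lrp8 was that of Acat2 and not that of Lrp1.

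The genes that control SREBP2 split. Insig1, which retains Scap and is itself an SREBP target, had 68.3, 69.0 and 70.1 CPM in genipin, 157, 157 and 156 CPM in genipin with NAC, 187, 183 and 193 CPM in NAC and 174, 172 and 174 CPM in vehicle. Its genipin libraries were lowest without overlap, at -1.33 ± 0.03 (adjusted p = 8.81e-19) against vehicle. The difference from vehicle was -0.15 ± 0.03 (adjusted p = 0.00021) in genipin with NAC and 0.11 ± 0.03 (adjusted p = 0.0019) in NAC. Insig2, a second retention protein, had 16.6, 17.6 and 16.9 CPM in genipin, 23.8, 25.5 and 23.0 CPM in genipin with NAC, 16.5, 19.9 and 17.3 CPM in NAC and 21.97, 17.4 and 18.5 CPM in vehicle. It was highest in the 3 libraries with both compounds, 0.32 ± 0.08 (adjusted p = 0.00196) against vehicle (0.55 with length offsets) and 0.50 ± 0.08 (adjusted p = 1.59e-05) against genipin. Genipin against vehicle gave -0.18 ± 0.08 (adjusted p = 0.0733), which passed the test without vehicle replicate 2 (-0.24, adjusted p = 0.0263), without a filter, with a mean of at least 5 CPM and with only the groups compared (adjusted p of 0.0485 to 0.0499). Without vehicle replicate 1 it was -0.076 (adjusted p = 0.465).

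Srebf2, which encodes SREBP2, had 507, 502 and 518 CPM in genipin, 490.4, 568 and 561 CPM in genipin with NAC, 505, 492 and 498 CPM in NAC and 549.8, 564 and 546 CPM in vehicle. Its range was narrow, and genipin against vehicle gave -0.12 ± 0.04 (adjusted p = 0.012). That call was lost without genipin replicate 2 or vehicle replicate 2 (adjusted p of 0.05 to 0.0553) and without normalization factors (-0.055, adjusted p = 0.216). NAC against vehicle gave -0.15 ± 0.04 (adjusted p = 0.00233), which was lost without normalization factors (-0.032, adjusted p = 0.488) and with length offsets (adjusted p = 0.0575). Replicate 1 of the combination was below its 2 partners. Without it the rise of genipin with NAC over genipin was 0.15 (adjusted p = 5.34e-06), in place of 0.085 ± 0.04 (adjusted p = 0.0605). With all libraries it was called without a filter (0.083, adjusted p = 0.0255), with a mean of at least 5 CPM (0.12, adjusted p = 0.0084) and with length offsets (0.13, adjusted p = 0.0229). Scap, the escort protein, had 121, 127 and 123 CPM in genipin, 72.4, 84.7 and 86.5 CPM in genipin with NAC, 68.7, 65.4 and 59.9 CPM in NAC and 87.9, 89.9 and 89.6 CPM in vehicle. It was highest in genipin and lowest in NAC, without overlap with vehicle. The log2 fold change was 0.47 ± 0.05 (adjusted p = 8.52e-08) for genipin and -0.46 ± 0.05 (adjusted p = 2.41e-07) for NAC against vehicle. The combination against genipin gave -0.60 ± 0.05 (adjusted p = 1.31e-09). The difference of the combination from vehicle, -0.13 ± 0.05 (adjusted p = 0.0398), was lost without replicate 1 of the combination (-0.056, adjusted p = 0.255), without any one of the 3 vehicle libraries (adjusted p of 0.0604 to 0.0976), and with 4 of the other settings tried.

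**Figure D3:**
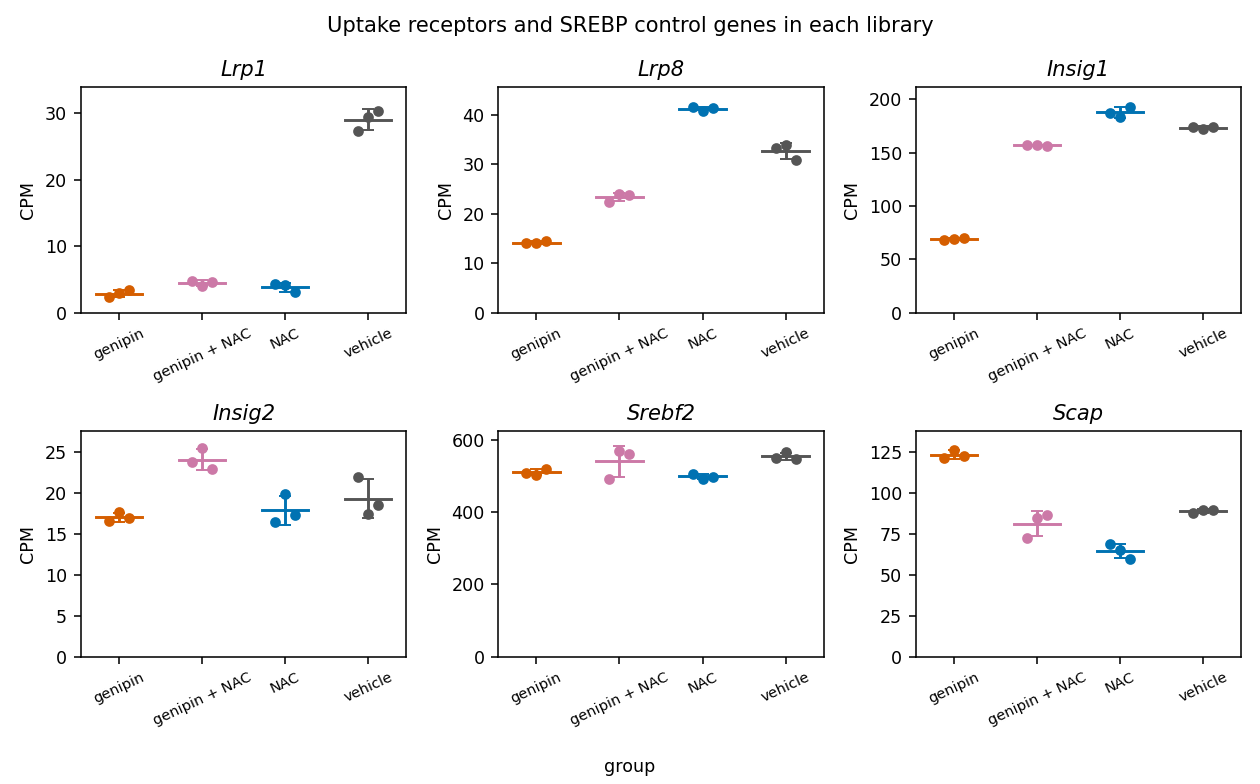
CPM of the 2 receptors and the 4 SREBP control genes in each of the 12 libraries, with points for libraries, lines for group means and bars of 1 SD. Lrp1 is at 2.28 to 4.82 CPM in all treated libraries and at 27.4 to 30.3 CPM in vehicle, Insig1 is lowest in genipin alone, and Scap is highest there.

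Genes of sterol transport and storage moved less. Stard4, a cytosolic sterol carrier, had 165, 159 and 161 CPM in genipin, 276, 259 and 249.6 CPM in genipin with NAC, 244, 249.9 and 260.1 CPM in NAC and 250.4, 248 and 243 CPM in vehicle. It was lower in genipin than in all other libraries, at -0.61 ± 0.04 (adjusted p = 3.43e-12) against vehicle. The groups with NAC overlapped with vehicle in Stard4, and their log2 fold changes were 0.082 ± 0.03 (adjusted p = 0.0504) for genipin with NAC and 0.026 ± 0.03 (adjusted p = 0.544) for NAC. Without normalization factors both were called (0.12, adjusted p = 0.00654, and 0.15, adjusted p = 0.00161). That of genipin with NAC was also called with a mean of at least 5 CPM (0.11, adjusted p = 0.0115). Npc1 and Npc2 release cholesterol from lysosomes. Exons of Rmc1, with 719 to 1322 counts in a library, lie across 511 bases of Npc1 on the opposite strand. Npc1 itself had at least 2503 counts. Npc1 ranged over 112 to 113 CPM in genipin, 138 to 144 CPM in genipin with NAC, 149 to 155 CPM in NAC and 131 to 135 CPM in vehicle. It was lowest in genipin (-0.24 ± 0.03, adjusted p = 1.04e-06) and highest in NAC (0.19 ± 0.03, adjusted p = 1.88e-05). Its rise in genipin with NAC, 0.082 ± 0.03 (adjusted p = 0.0271), was lost without vehicle replicate 1 or 2 or replicate 3 of the combination (adjusted p of 0.076 to 0.122) and under 4 of the other settings (adjusted p of 0.059 to 0.529). Npc2 ranged over 441 to 448 CPM in genipin, 515 to 519 CPM in genipin with NAC, 419.9 to 428 CPM in NAC and 497 to 510.3 CPM in vehicle. It was lower in genipin (-0.18 ± 0.03, or -0.11 without normalization factors) and in NAC (-0.25 ± 0.03) than in vehicle, and genipin with NAC gave 0.041 ± 0.03 (adjusted p = 0.172). That last difference was called without normalization factors (0.082, adjusted p = 0.00813) and with a mean of at least 5 CPM (0.066, adjusted p = 0.026). Soat1, which esterifies cholesterol for storage, ranged over 63.6 to 64.0 CPM in genipin, 61.4 to 65.6 CPM in genipin with NAC, 54.4 to 58.9 CPM in NAC and 52.4 to 57.7 CPM in vehicle. It was higher with genipin (0.19 ± 0.04, adjusted p = 0.000745) and with both compounds (0.19 ± 0.04, adjusted p = 0.000806) than in vehicle. Both calls were lost with length offsets (adjusted p of 0.0639 and 0.101).

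Of the 4 LXR and efflux genes, Abca1, Abcg1 and Mylip rose with genipin, where 29.9% of all genes rose, and Nr1h2 was not called. The 3 did not move in 1 direction with NAC. Nor did 12 other LXR and efflux genes move in 1 direction with genipin, where 5 rose and 5 fell, with a median log2 fold change of 0.042. Abca1, the pump that loads cholesterol onto lipid-poor apolipoprotein, had 2.94, 3.17 and 3.43 CPM in genipin, 0.732, 0.986 and 0.752 CPM in genipin with NAC, 0.0920, 0.378 and 0.457 CPM in NAC and 1.86, 1.38 and 2.14 CPM in vehicle. Its genipin libraries were highest and its NAC libraries lowest, without overlap of any groups. The NAC libraries held 2, 10 and 12 counts, the first of them under the limit of 3 counts. Against vehicle it rose by 0.82 ± 0.23 (adjusted p = 0.00411) in genipin, a call lost with length offsets (0.69, adjusted p = 0.0916). It fell in both NAC groups, with -1.13 ± 0.28 (adjusted p = 0.0014) in genipin with NAC and -2.47 ± 0.33 (adjusted p = 1.54e-06) in NAC. Genipin raised it by 1.34 ± 0.38 (adjusted p = 0.00494) in cells that also had NAC, and the interaction was 0.52 ± 0.44 (adjusted p = 0.345).

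Abcg1, the pump that passes cholesterol to high-density lipoprotein, had 10.4, 10.8 and 11.6 CPM in genipin, 7.36, 7.29 and 6.73 CPM in genipin with NAC, 12.4, 12.1 and 11.2 CPM in NAC and 6.42, 7.89 and 7.47 CPM in vehicle. It was high in genipin (0.59 ± 0.09, adjusted p = 1.13e-05 against vehicle) and in NAC (0.71 ± 0.09, adjusted p = 1.03e-06), but not in genipin with NAC, whose libraries overlapped with vehicle (-0.032 ± 0.10, adjusted p = 0.804). The interaction was -1.33 ± 0.13 (adjusted p = 2.27e-08), the lowest of the 32 genes. The combination was below genipin alone, at -0.62 ± 0.09 (adjusted p = 4.27e-06), a call lost with length offsets (-0.35, adjusted p = 0.097). Mylip, the ligase for lipoprotein receptors, had 2.67, 3.71 and 2.698 CPM in genipin, 2.28, 2.49 and 2.45 CPM in genipin with NAC, 1.79, 1.89 and 1.48 CPM in NAC and 1.01, 1.21 and 1.00 CPM in vehicle. All 9 treated libraries lay above the vehicle libraries. The log2 fold changes were 1.48 ± 0.20 (adjusted p = 1.65e-06) for genipin, 1.16 ± 0.21 (adjusted p = 5.48e-05) for genipin with NAC and 0.68 ± 0.22 (adjusted p = 0.0104) for NAC. Genipin with NAC against NAC gave 0.48 ± 0.19 (adjusted p = 0.0384), a call lost without replicate 2 or 3 of the combination or replicate 1 or 3 of NAC (adjusted p of 0.0595 to 0.144) and under 4 of the other settings (adjusted p of 0.0612 to 0.124).

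Nr1h2, which encodes LXR beta, had 84.0, 78.2 and 89.1 CPM in genipin, 78.3, 92.5 and 97.7 CPM in genipin with NAC, 80.8, 75.6 and 75.5 CPM in NAC and 77.2, 79.9 and 81.3 CPM in vehicle. Its groups overlapped. Against vehicle the log2 fold change was 0.077 ± 0.06 (adjusted p = 0.279) in genipin, 0.17 ± 0.06 (adjusted p = 0.0173) in genipin with NAC and -0.042 ± 0.06 (adjusted p = 0.573) in NAC. The call in genipin with NAC was lost without vehicle replicate 1 or without replicate 2 or 3 of the combination (adjusted p of 0.0593 to 0.157) and with length offsets (adjusted p = 0.116), and its replicate 1 was below the others. Without that library genipin with NAC exceeded genipin by 0.18 (adjusted p = 0.000824), in place of 0.097 ± 0.06 (adjusted p = 0.157). With all libraries that difference was called with a mean of at least 5 CPM (0.13, adjusted p = 0.0498). Nr1h2 in genipin against vehicle was called without normalization factors (0.14, adjusted p = 0.0412).

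**Figure D4:**
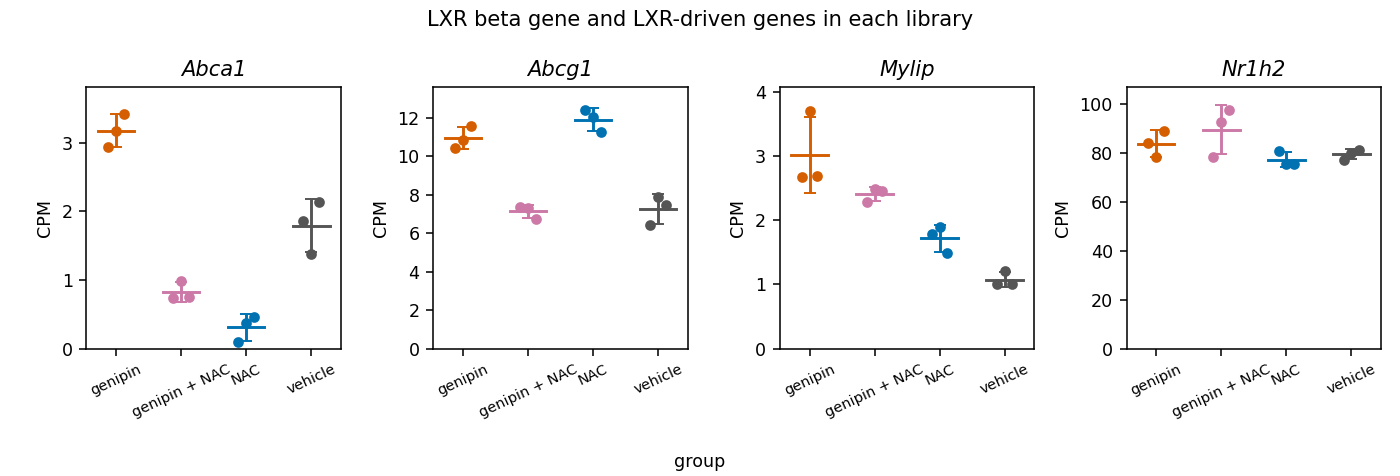
CPM of Abca1, Abcg1, Mylip and Nr1h2 in each of the 12 libraries, with points for libraries, lines for group means and bars of 1 SD. Abca1 separates all 4 groups, Abcg1 is high in both single treatments, Mylip is above vehicle in all treated libraries, and Nr1h2 overlaps between groups.

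Set side by side, the mean log2 CPM of the 18 enzymes differed from the vehicle mean by -1.191 to -1.181 in the genipin libraries, by -0.34 to -0.33 with both compounds and by 0.020 to 0.033 with NAC. The mean over Abca1, Abcg1 and Mylip differed from it by 0.83 to 1.04 in genipin, by -0.041 to 0.13 with both compounds and by -0.65 to -0.17 with NAC. The mean with both compounds combines a fall of Abca1 with a rise of Mylip, and that with NAC a fall of Abca1 with rises of the other 2 genes. These means describe genes listed with earlier results known, and no test was made of them.

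**Figure D5:**
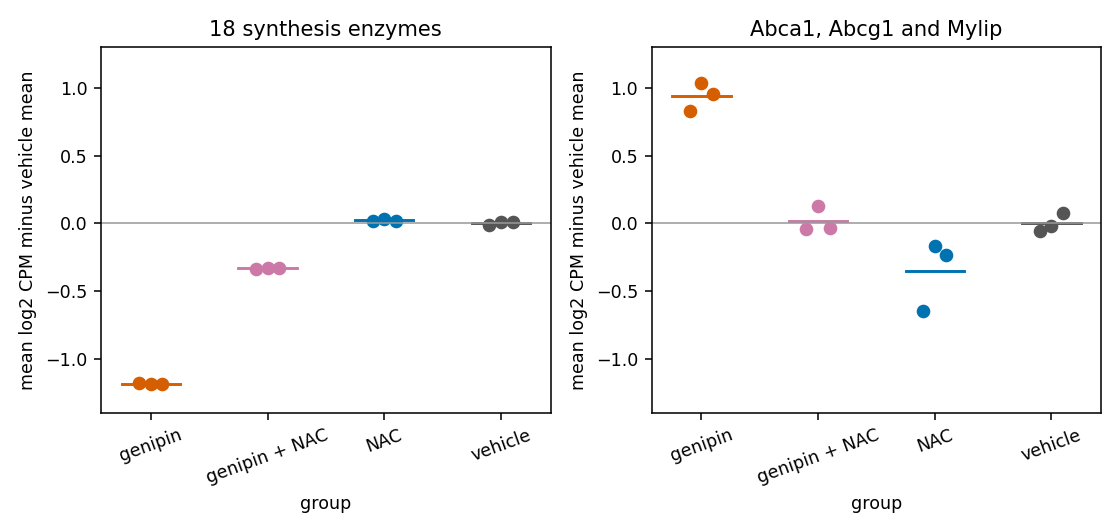
Mean log2 CPM of the 18 synthesis enzymes (left) and of Abca1, Abcg1 and Mylip (right) in each of the 12 libraries, minus the mean of the vehicle libraries, with points for libraries and lines for group means. The genipin libraries are lowest on the left and highest on the right, and the NAC libraries lie near 0 on the left and below 0 on the right.

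A wider list of 86 genes of sterol and isoprenoid metabolism, none of them among the 32, had 81 genes tested. In genipin against vehicle 23 of these rose, 30 fell and 28 were not called, with a median log2 fold change of -0.034. As shares of the 81, the rises are near the 29.9% of all genes that rose, and the falls are above the 31.0% that fell. Of the 12 other genes of sterol synthesis and SREBP2 targets, 1 rose and 9 fell, with a median of -0.51. Of the 14 genes of isoprenoid branches, such as protein prenylation and dolichol synthesis, 4 rose and 6 fell, with a median of -0.071. Among 17 genes of sterol transport 6 rose and 4 fell. The counts for the 81 were 26 rises and 31 falls in genipin with NAC against vehicle, 27 and 28 in NAC against vehicle, and 30 and 30 in genipin with NAC against genipin. Over all genes the shares higher and lower were 28.5% and 28.9%, 29.6% and 30.0%, and 35.0% and 34.3% in that order. As shares of the 81, each of these counts is above its share over all genes. The falls in genipin with NAC against vehicle are above it by the most. These differences were not tested.

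Among the genes of that list with the smallest p, Aacs, which activates acetoacetate for lipid synthesis, had 45.8, 43.3 and 44.6 CPM in genipin, 39.3, 43.5 and 41.7 CPM in genipin with NAC, 69.9, 68.5 and 69.4 CPM in NAC and 83.2, 86.7 and 86.8 CPM in vehicle. All 9 treated libraries were lower than vehicle, with -0.94 ± 0.04 (adjusted p = 3.78e-14) in genipin, -1.04 ± 0.04 (adjusted p = 1.1e-14) in genipin with NAC and -0.31 ± 0.04 (adjusted p = 1.18e-06) in NAC. Acss2, which makes cytosolic acetyl-CoA from acetate, ranged over 34.3 to 36.2 CPM in genipin, 63.5 to 65.8 CPM in genipin with NAC, 53.4 to 55.7 CPM in NAC and 58.6 to 61.4 CPM in vehicle. It was lower in genipin than in any other library, and genipin with NAC exceeded genipin by 0.89 ± 0.04 (adjusted p = 5.32e-14). Sorl1, a sorting receptor of the lipoprotein receptor family, ranged over 145 to 148 CPM in genipin, 123 to 128 CPM in genipin with NAC, 102 to 109.7 CPM in NAC and 70.5 to 73.4 CPM in vehicle. Its groups did not overlap, and all treated libraries were above vehicle. The rise was 1.03 ± 0.04 (adjusted p = 5.94e-16) in genipin, 0.82 ± 0.04 (adjusted p = 4.08e-14) in genipin with NAC and 0.57 ± 0.04 (adjusted p = 1.52e-11) in NAC. Smpdl3a, a phosphodiesterase known as an LXR target in human macrophages, ranged over 25.6 to 26.6 CPM in genipin, 66.6 to 71.2 CPM in genipin with NAC, 60.01 to 63.4 CPM in NAC and 44.3 to 45.5 CPM in vehicle. It was lowest in genipin, and genipin with NAC exceeded genipin by 1.42 ± 0.04 (adjusted p = 5.7e-17). Rabggtb, the beta subunit of the enzyme that prenylates Rab proteins, ranged over 35.9 to 37.5 CPM in genipin, 63.2 to 67.0 CPM in genipin with NAC, 89.8 to 97.0 CPM in NAC and 58.9 to 60.7 CPM in vehicle. It was lowest in genipin and highest in NAC, where it exceeded vehicle by 0.66 ± 0.04 (adjusted p = 8.66e-12).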

How the data were processed

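RNA of 12 libraries was sequenced as paired reads of 150 bases after ribosomal RNA removal, with a stranded kit, per the labels' protocols. The submitters' processing notes list bcl2fastq, cutadapt 1.18, STAR 2.7.0f, RSEM 1.3.1 and mm10; the strand setting of counting is not given in the sources used here. The authors deposited 1 gene table per library with expected counts, TPM, FPKM and effective lengths, per the file headers. FPKM was not used, and TPM only for the order of enzymes within a group. Every gene ID and symbol matched GENCODE release mouse M21, annotated on mm10.

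Expected counts were rounded, filtered with filterByExpr (13636 genes left) and scaled with TMM factors (0.961 to 1.05) in edgeR 4.0.16 under R 4.3.3. One fit to all 12 libraries, with 1 mean per group and 8 residual degrees of freedom, gave 6 contrasts by quasi-likelihood F tests, with Benjamini-Hochberg adjustment over all genes tested. The SE is the absolute log2 fold change over the square root of F. The script was tested on simulated data with known changes. Alternatives were RLE factors, no factors, DESeq2 1.42.0, no filter, a mean of at least 5 CPM, only the groups compared, length offsets, a replicate block and each library left out. Totals set the precision: 3 counts, the limit for a gene with none, are 0.098 to 0.138 CPM over the 12 libraries.

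The members and lists were chosen with earlier results of these data known. All 32 genes are named, and from the wider list up to 3 called genes with the smallest p in each comparison with vehicle and in genipin with NAC against genipin. Single results of some genes eligible under this rule are not reported here; they stay in the tests and counts. Figures were drawn with matplotlib 3.10.9.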

Additional observations from a re-analysis of the deposited data

Results flagged for a closer look

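The effect of genipin differed between cells with and without NAC in 25 of the 32 genes, where 51.4% of all genes were called, by a test of the difference itself (the interaction in edgeR's quasi-likelihood fit, 3 libraries in each of the 4 groups). Values are log2 differences, with the genipin effect in cells without NAC subtracted from that in cells with NAC. Among the mevalonate enzymes they were 1.46 for Mvd, 1.43 for Fdps, 1.27 for Hmgcs1, 1.26 for Pmvk, 1.12 for Acat2, 1.05 for Mvk and 0.74 for Idi1. Among the sterol enzymes they were 1.33 for Fdft1, 1.24 for Nsdhl, 1.17 for Msmo1, 0.89 for Tm7sf2, 0.76 for Cyp51, 0.54 for Dhcr7, 0.52 for Sqle and 0.25 for Hsd17b7; the call of Hsd17b7 was lost without normalization factors (adjusted p = 0.24) and with length offsets (adjusted p = 0.0959).

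Of the other genes, the receptors gave 3.58 for Lrp1 and 0.39 for Lrp8. The control genes gave 1.07 for Insig1, 0.60 for Insig2 and 0.24 for Srebf2. The transport genes gave 0.67 for Stard4, 0.46 for Npc2 and 0.13 for Npc1. Abcg1 at -1.33 and Mylip at -0.998 were the 2 negative ones: each was raised by genipin and by NAC alone. With both compounds Mylip was 1.16 against vehicle, and Abcg1 was not called. Without normalization factors the call was lost for Srebf2 (0.093, adjusted p = 0.156), and with length offsets for Insig2 (0.50, adjusted p = 0.0545). The call of Npc1 was lost without vehicle replicate 3 (adjusted p = 0.0512).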

How the results depend on the processing

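Over 8 other settings and 12 omissions of 1 library, the number of the 32 genes called stayed at 27 to 31 for genipin against vehicle (30 as reported), 22 to 28 for genipin with NAC against vehicle (27), 19 to 26 for NAC against vehicle (22), 26 to 29 for genipin with NAC against genipin (28), 23 to 28 for genipin with NAC against NAC (27) and 24 to 26 for the interaction (25). DESeq2 called 30, 25, 22, 27, 26 and 25 of the 32, in that order of comparisons. Of 192 gene results, 159 were called; 25 of these lost the call in at least 1 alternative, 18 of the rest gained it, and 2 called ones turned, both without normalization factors (Hmgcs1 in NAC against vehicle and Npc1 in the interaction). Signs changed mostly in small differences. The value furthest from 0 after a change of sign was that of Insig2 in NAC against vehicle, 0.22 with length offsets in place of -0.10. The cause was not tested.

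Without normalization factors the reversed values were 0.0055 for Srebf2 and 0.0090 for Abcg1 in genipin with NAC against vehicle; 0.0061 for Hmgcs1, 0.080 for Idi1, 0.12 for Cyp51, 0.016 for Insig2 and 0.078 for Nr1h2 in NAC against vehicle; -0.023 for Stard4 in genipin with NAC against NAC; and -0.080 for Sc5d, -0.012 for Npc1 and -0.0055 for Nr1h2 in the interaction. With length offsets they were 0.093 for Abcg1 in genipin with NAC against vehicle, 0.0077 for Cyp51, 0.22 for Insig2, -0.032 for Stard4 and -0.064 for Soat1 in NAC against vehicle, and 0.035 for Soat1 in the interaction. Pmvk in genipin with NAC against vehicle was -0.0028 with DESeq2 and -0.0021 without a filter, which also gave -0.0054 for Fdft1 in NAC against vehicle. Cyp51 in NAC against vehicle was 0.00056 with RLE factors and 0.017 with a mean of at least 5 CPM. Soat1 in genipin with NAC against genipin was 0.036 with that filter and 0.0054 with only the groups compared.

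Omission of 1 library at a time gave sign changes in 9 results, none of them called. In NAC against vehicle the ranges were -0.0023 to 0.031 for Fdft1, -0.028 to 0.024 for Cyp51 and -0.023 to 0.043 for Soat1. In genipin with NAC against vehicle they were -0.035 to 0.042 for Pmvk, -0.071 to 0.031 for Srebf2 and -0.11 to 0.029 for Abcg1. Soat1 ranged over -0.020 to 0.025 in genipin with NAC against genipin and -0.044 to 0.022 in the interaction, and Mvk over -0.072 to 0.032 in genipin with NAC against NAC. Further calls changed in genipin with NAC against NAC: that of Srebf2 (0.12) was lost without replicate 2 or 3 of the combination or NAC replicate 2 (adjusted p of 0.0603 to 0.117), that of Nr1h2 (0.22) without replicate 3 of the combination (0.0505), and Stard4 gained one there (0.0422). Calls in genipin with NAC against NAC were also lost without normalization factors for Srebf2 (0.037, adjusted p = 0.43), Soat1 (0.097, adjusted p = 0.0767) and Nr1h2 (0.14, adjusted p = 0.0547). Length offsets removed those of Srebf2 (0.11, adjusted p = 0.0851) and Insig2 (0.32, adjusted p = 0.0737), and the lack of a filter that of Nsdhl (-0.11, adjusted p = 0.0513). Stard4 against vehicle was called without replicate 3 of the combination or NAC replicate 1 (0.00967 to 0.0496). In the interaction, Scap (-0.14) was called without replicate 3 of the combination or of NAC (0.0449 and 0.0442), without normalization factors (-0.28, adjusted p = 0.00252) and with length offsets (-0.25, adjusted p = 0.0387), and Nr1h2 without replicate 1 of the combination (0.22, adjusted p = 0.00306). The interaction of Nr1h2 was also called without a filter (0.15, adjusted p = 0.0477) and with length offsets (0.25, adjusted p = 0.0431).

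Libraries of different groups share replicate numbers. Once group means were removed, same-numbered libraries correlated between -0.0751 and 0.0437 over 18 pairs, and 4 of 12 correlated best with their own number, so the numbers were not taken as pairs. With the replicate number as a block, 8246, 7768, 8050, 9373, 7152 and 6958 genes were called in the 6 contrasts, against 8312, 7826, 8134, 9446, 7239 and 7008 without it. The block left 30, 27, 21, 28, 27 and 25 of the 32 genes called, and changed 1 gene result, Fdps in NAC against vehicle (0.068, adjusted p = 0.0592).

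Low counts limit the precision of Abca1 in the groups with NAC and of Mylip in vehicle. Groups of 3 libraries, without stated doses or replicate origin, limit the rest.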

Other observations

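Of the wider sterol list, 2 genes with few counts are given as values, chosen after their values were seen. Vldlr, a lipoprotein receptor of the family of Lrp8, had 0, 0.0447 and 0 CPM in genipin, 4.69, 4.37 and 3.89 CPM in genipin with NAC, 2.25, 2.57 and 2.13 CPM in NAC and 0.253, 1.04 and 0.893 CPM in vehicle. The genipin libraries held 0, 1 and 0 counts, and the 2 groups with NAC lay above every other library. Rxra, which encodes a partner receptor of LXR, had 2.98, 2.59 and 2.04 CPM in genipin, 0.301, 0.686 and 0.327 CPM in genipin with NAC, 0.230, 0.718 and 0.571 CPM in NAC and 0.211, 0.709 and 0.429 CPM in vehicle. It was higher in the 3 genipin libraries than in any of the other 9, and its log2 fold change in genipin against vehicle was 2.48. No p is given, as the gene was chosen after its values were seen.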
